A study of Homo sapiens with 12 samples.

Results

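Long noncoding RNAs whose symbols mark them as intergenic or antisense were followed in Ewing sarcoma cells while transcription was blocked. Members were chosen by name and by counts alone: genes called LINC with a number (long intergenic noncoding RNAs), genes whose symbol ends in AS1 or AS2 (RNAs antisense to the gene that lends its name) and genes ending in IT1 (RNAs from an intron of that gene), each with at least 10 reads in at least 3 of the 12 libraries. Of 1878 such symbols among the 26334 listed genes, 278 met the count rule: 95 LINC genes of 874, 177 antisense genes of 953 and 6 intronic genes of 51. A further filter on low counts left 271 for testing, 94 LINC, 171 antisense and 6 intronic. The 7 members not tested were PITRM1-AS1, CEBPB-AS1, ADNP-AS1, CHKB-AS1, PCOLCE-AS1, KMT2E-AS1 and LINC01192. No member met the rule through the libraries of only 1 time point. At the edge of the rule, the third highest count was exactly 10 in 13 members, among them ADNP-AS1 with 78 reads in all and JHDM1D-AS1 with 80, and 15 candidates stopped at 9, among them FTO-IT1 and TAF1A-AS1 with 90 reads each.

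The cells, shA673-1c, derive from A673, an established Ewing sarcoma line, and doxycycline switches on in them a short hairpin RNA that targets EWS::FLI1, the fusion oncogene of this tumour. Doxycycline (1 µg per ml, 4 days) had been given in all 12 libraries, so every group shares the knockdown, and libraries without it are not analysed here. Actinomycin D, which blocks transcription, was then added at 5 µM, and polyadenylated RNA was taken at 0, 1, 2 and 4 h, with 3 biological replicates at each time. All results come from 1 cell line, and its knockdown cannot be checked without untreated cells: FLI1, whose reads include those of the fusion, stood at 19.8, 19.9 and 21.7 CPM (reads scaled to the size of the library) at 0 h. No spike-in was used here, so a level is a share of the polyadenylated RNA that is left, and "lower" and "higher" mean relative to the bulk of the other RNAs.

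Long noncoding RNAs are made by RNA polymerase II, and many are capped, spliced and polyadenylated as mRNAs are. Many antisense RNAs start next to the start site of a coding gene on the other strand, so that 1 promoter region serves both directions, and unspliced or promoter-derived noncoding RNAs are often degraded by the nuclear exosome. Some act in the cytoplasm, some are hosts of microRNAs or small nucleolar RNAs, and a few carry short open reading frames that were found later to be translated.

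Sequences of 2 kinds are printed for members named in later results, and no test ties a change to them. The first set is the promoter that an antisense RNA shares with its sense partner. Each window runs from 250 bases before to 50 bases after the start of the antisense RNA in RefSeq (GRCh38.p14), 5′ to 3′ along the antisense RNA, and the capitals mark the bases that also lie in the same window of the sense gene on the opposite strand. They are given for pairs in which both RNAs passed the test at 4 h, first 2 of the 9 pairs with opposite calls (NUP50-AS1, chr22:45163732-45164031, minus strand, and RAB30-AS1, chr11:83071816-83072115, plus strand) and then 2 of the 7 in which both were lower (NIPBL-AS1, chr5:36876645-36876944, minus strand, and TMCC1-AS1, chr3:129893621-129893920, plus strand).
NUP50-AS1: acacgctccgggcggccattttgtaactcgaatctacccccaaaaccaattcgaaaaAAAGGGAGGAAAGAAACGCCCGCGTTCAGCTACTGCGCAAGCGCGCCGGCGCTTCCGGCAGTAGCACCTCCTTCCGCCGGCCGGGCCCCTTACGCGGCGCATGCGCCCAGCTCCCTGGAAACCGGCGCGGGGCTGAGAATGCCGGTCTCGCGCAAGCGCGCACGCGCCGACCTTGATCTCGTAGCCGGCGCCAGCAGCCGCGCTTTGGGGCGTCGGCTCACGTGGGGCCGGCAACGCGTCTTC
RAB30-AS1: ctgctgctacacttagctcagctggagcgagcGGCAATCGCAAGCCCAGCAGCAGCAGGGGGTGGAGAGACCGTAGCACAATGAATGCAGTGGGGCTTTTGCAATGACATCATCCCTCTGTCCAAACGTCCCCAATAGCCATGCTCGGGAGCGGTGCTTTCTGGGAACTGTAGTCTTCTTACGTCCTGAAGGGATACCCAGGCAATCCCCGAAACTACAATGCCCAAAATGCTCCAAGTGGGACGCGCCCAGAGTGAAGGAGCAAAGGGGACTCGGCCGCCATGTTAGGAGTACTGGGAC
NIPBL-AS1: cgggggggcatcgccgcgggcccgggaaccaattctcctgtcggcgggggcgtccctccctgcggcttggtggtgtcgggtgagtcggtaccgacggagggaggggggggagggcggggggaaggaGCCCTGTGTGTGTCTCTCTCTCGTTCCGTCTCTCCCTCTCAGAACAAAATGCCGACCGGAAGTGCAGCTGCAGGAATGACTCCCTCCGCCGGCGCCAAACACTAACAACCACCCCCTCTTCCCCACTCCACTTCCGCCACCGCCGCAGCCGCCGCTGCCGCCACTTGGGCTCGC
TMCC1-AS1: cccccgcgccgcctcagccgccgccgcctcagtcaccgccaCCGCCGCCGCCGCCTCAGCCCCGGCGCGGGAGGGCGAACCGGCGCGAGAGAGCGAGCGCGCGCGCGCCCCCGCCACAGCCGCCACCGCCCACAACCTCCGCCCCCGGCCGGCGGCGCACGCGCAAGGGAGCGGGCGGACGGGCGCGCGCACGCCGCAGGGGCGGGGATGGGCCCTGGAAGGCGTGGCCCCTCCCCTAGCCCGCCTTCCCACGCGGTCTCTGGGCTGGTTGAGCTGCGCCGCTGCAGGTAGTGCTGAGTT
The shared stretch was 243 bases long for NUP50-AS1, 268 for RAB30-AS1, 174 for NIPBL-AS1 and 259 for TMCC1-AS1. The start sites of the 2 genes lay 144, 169, 75 and 160 bases apart in the same order.

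The second set is the microRNA carried by 2 LINC genes that fell, LINC00461 (MIR9-2HG in RefSeq), which holds the hairpin MIR9-2, and LINC00925 (MIR9-3HG), which holds MIR9-3. Both hairpins, like MIR9-1, which lies in no member, give the same mature miR-9, a microRNA best known from neural tissue, and the capitals mark the seed, bases 2 to 8 from the 5′ end. The mature microRNA was not measured in these libraries.
hsa-miR-9-5p: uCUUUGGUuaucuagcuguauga

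Total counts lay between 9381855 and 10929000 per library, and the median member count was 23 reads per library, so that many members rest on few reads: 118 of the 271 tested members averaged under 2 CPM and 19 reached 20 CPM. All CPM values are TMM-scaled, which sets the bulk of genes equal between libraries. The drug acted in every replicate: MYC went from 94, 94.4 and 72.3 CPM at 0 h to 5.33, 4.29 and 3.39 CPM at 4 h, and 9 of 10 short-lived mRNAs on a fixed list fell at 4 h. Of 8 markers of the Ewing sarcoma line 7 were tested and 1 had no read. The summed level of the list was 437 to 612 CPM at 0 h and 512 to 710 CPM at 4 h, most of it from CCND1 (518 CPM on average). The sum does not show the other markers: of the 7 tested, 3 were lower and 0 higher at 4 h, beside 24.6% and 23.3% of all genes. Of 10 markers of other cell types 2 were tested and 1 had no read, with a summed level of 20.3 to 30.3 CPM at 0 h and 11.5 to 19.3 CPM at 4 h, most of it from HBB (17.4 CPM on average), whose part in the results was not tested.

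Between 0 and 4 h, equal numbers of LINC genes moved each way, while more antisense RNAs fell than rose. Of 94 LINC genes, 13 were lower and 13 higher at 4 h (edgeR quasi-likelihood test, Benjamini-Hochberg adjusted p under 0.05 over all genes tested). Of 171 antisense RNAs, 24 were lower and 16 higher. Among all 12775 tested genes, 24.6% were lower and 23.3% higher, and 47.9% passed in either direction, beside 27.7% of the LINC genes and 23.4% of the antisense RNAs. The LINC genes had a median log2 change of 0.01, the antisense RNAs of -0.13 and all tested genes of 0.05. These classes are sets of genes, not replicates, and the difference between them was not tested. With the replicate block, a model that pairs libraries of the same replicate number, 38 antisense RNAs were lower and 24 higher and 16 LINC genes were lower and 19 higher, beside 30.8% and 34.8% of all genes. Without 0 h replicate 1 the lower LINC genes numbered 8 and the lower antisense RNAs 15, and without 4 h replicate 2 the lower antisense RNAs numbered 14.

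**Figure D1:**
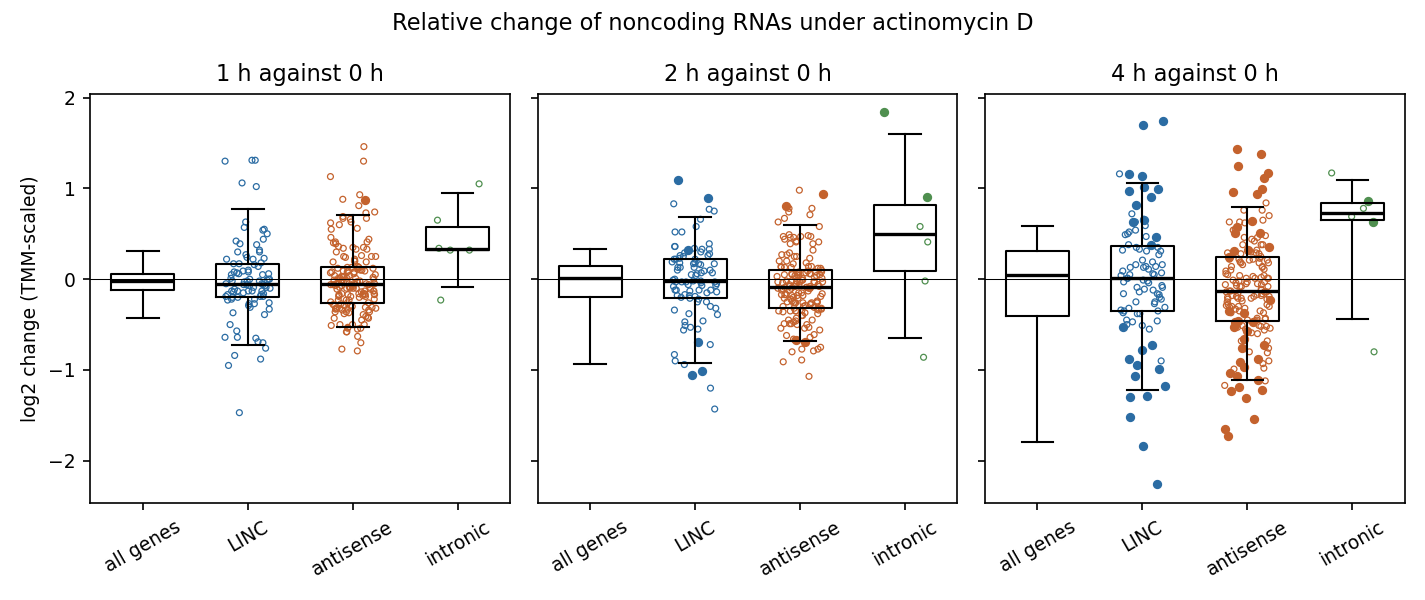
The log2 change against 0 h (vertical axis, TMM-scaled) of each tested LINC, antisense and intronic RNA at 1, 2 and 4 h; filled points passed an adjusted p of 0.05, boxes show quartiles and whiskers the 5th and 95th percentile, and the box for all genes shows the 12775 tested genes. At 4 h the medians were 0.01 for LINC, -0.13 for antisense and 0.73 for intronic RNAs, beside 0.05 for all genes.

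The share of all genes that passed differed with abundance, for reasons not tested, so the classes were also read within bands of mean CPM. Of all tested genes, 20.9% passed at 4 h under 2 CPM, 34.2% from 2 to 5 CPM, 44.8% from 5 to 20 CPM and 56.4% at 20 CPM or more. LINC genes passed in 28.6%, 34.8%, 15.8% and 30% of cases in the same bands (42, 23, 19 and 10 genes). Antisense RNAs passed in 11.3%, 23.5%, 40% and 44.4% (71, 51, 40 and 9 genes). The upper bands hold few members. From 5 to 20 CPM, 12 of 40 antisense RNAs were lower (30%) and 4 higher (10%), beside 33.1% and 11.7% of all genes in that band. Of the 9 at 20 CPM or more 1 was lower (11.1%) and 3 were higher (33.3%), beside 22.5% and 33.8%. From 2 to 5 CPM, 4 of 51 were lower (7.84%) and 8 higher (15.7%), beside 25.3% and 8.92%. Under 2 CPM, 7 of 71 were lower (9.86%) and 1 higher (1.41%), beside 15.7% and 5.23%.

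**Figure D2:**
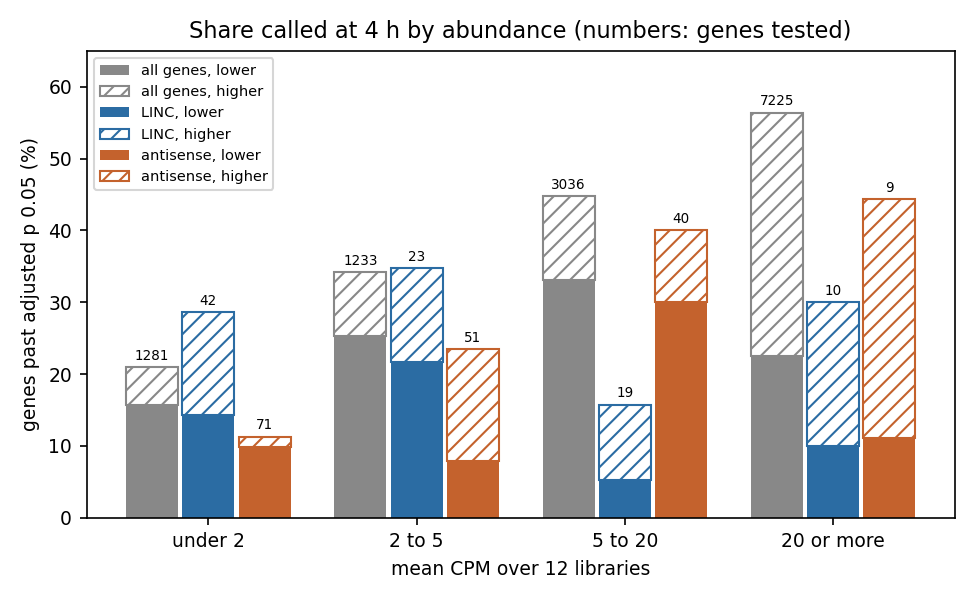
Share of genes past an adjusted p of 0.05 at 4 h (vertical axis, percent) by mean CPM over the 12 libraries, for all tested genes, LINC and antisense RNAs; solid bars are lower, hatched bars higher, and the number above each bar is the genes tested. The share for all genes runs from 20.9% to 56.4% across the bands.

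LINC00657, the most abundant LINC gene, fell at 4 h. NORAD, as it is now called, is a cytoplasmic RNA needed for stable chromosome number, and its gene is unspliced, with 1 exon in GENCODE v29. Its level was 238, 247 and 267 CPM in replicates 1, 2 and 3 at 0 h and 217, 225 and 245 CPM at 1 h. It was 194, 212 and 246 CPM at 2 h and 130, 146 and 179 CPM at 4 h. All 4 h libraries lay below all others, and the fall was 1.65-fold (log2 change -0.72, SE 0.11, adjusted p = 0.000201). LINC00657 weighs on the sum of its class: the LINC members summed to 868.6 ± 7.3 CPM at 0 h and 809.8 ± 14.2 CPM at 4 h, and without LINC00657 to 617.8 ± 11.9 and 658 ± 11.3 CPM (SD, n = 3).

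LINC00847 fell the most among LINC genes of at least 2 CPM. It stood at 7.65, 6.32 and 8.11 CPM at 0 h, 5.28, 4.71 and 5.56 CPM at 1 h, 4.6, 3.84 and 5.22 CPM at 2 h and 2.38, 1.46 and 2.33 CPM at 4 h. The libraries of 0 h and 4 h did not overlap, as the rule for naming falls and rises required, and the level was 3.57-fold lower at 4 h (log2 change -1.84, SE 0.21, adjusted p = 1.203e-05). It was already lower at 2 h (log2 change -0.69, adjusted p = 0.02183), a call lost if replicate 1 (0.0719) or 3 (0.0708) of 0 h, or replicate 1 (0.0563) or 2 (0.101) of 2 h, was left out.

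Both members that hold a miR-9 hairpin fell. LINC00461 went from 6.42, 7.07 and 7.58 CPM at 0 h to 4.24, 2.92 and 4.26 CPM at 1 h, 3.53, 3.03 and 3.58 CPM at 2 h and 1.93, 3.24 and 2.12 CPM at 4 h. Every library with the drug lay below every library without it. The log2 change was -1.05 at 2 h (adjusted p = 0.003123) and -1.52 at 4 h (SE 0.21, adjusted p = 8.582e-05), and at 1 h it was -0.88 (adjusted p = 0.05349, and 0.0009903 with the replicate block). LINC00925, named here after its values were seen, is rare: 1.13, 1.41 and 0.705 CPM at 0 h and 0.113, 0.314 and 0.212 CPM at 4 h. Its groups did not overlap and its log2 change was -2.26 (SE 0.57, adjusted p = 0.005535), from a handful of reads per library at 4 h. Of the other 4 members that hold a microRNA hairpin on their own strand, none passed the test at 4 h: TTC28-AS1 (0.01), ENTPD1-AS1 (-0.29), RAB11B-AS1 (-0.3) and LINC00669 (-0.17), all as log2 changes.

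The other LINC genes named for a fall at 4 h were LINC00909, LINC00189, LINC01089 and LINC00883. LINC00909, which RefSeq now lists as ZNF407-AS1, went from 3.4, 4.34 and 4.76 CPM at 0 h to 2.15, 1.57 and 1.8 CPM at 4 h (log2 change -1.18, adjusted p = 0.001031). LINC00189 had a log2 change of -0.99 (adjusted p = 0.024), LINC01089 of -0.78 (0.02921) and LINC00883, now DUBR, of -0.53 (0.01464). In each of these 4 the libraries of both times did not overlap, which the rule for naming them required. LINC00189 missed the threshold without 0 h replicate 3 (0.0637) or 4 h replicate 2 (0.0941), LINC01089 without replicate 1 of 0 h (0.092) or replicates 1 (0.0577) or 2 (0.121) of 4 h, and LINC00883 without 0 h replicate 1 (0.0668) or 4 h replicate 3 (0.0515).

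Among the LINC genes that rose, LINC01252, LINC00174 and LINC00342 had the largest changes at 2 CPM or more. The rule for naming a rise required no overlap between 0 h and the time compared. LINC00342 stood at 8.97, 5.18 and 6.7 CPM at 0 h and at 10.9, 7.92 and 13.5 CPM at 1 h. At 2 h it was at 12.6, 13.2 and 12.9 CPM and at 4 h at 12.5, 12.4 and 15.8 CPM. The log2 change was 0.89 at 2 h (adjusted p = 0.01285; 0.0644 if 0 h replicate 2 was left out) and 0.97 at 4 h (SE 0.21, adjusted p = 0.00242), with no overlap at either time. LINC01252 went from 0.944, 1.41 and 1.23 CPM at 0 h to 2.49, 1.88 and 3.61 CPM at 4 h, with no overlap (log2 change 1.14, adjusted p = 0.01011; 0.0562 if 4 h replicate 3 was left out). LINC00174 went from 2.27, 1.51 and 1.76 CPM to 4.53, 2.82 and 3.71 CPM (log2 change 0.99, adjusted p = 0.007396).

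LINC00265, LINC00641 and LINC01420 rose less. LINC01420 is a coding gene under an old name: it encodes NBDY, a small protein of the P-bodies in which mRNAs are decapped. It stood at 29.4, 29.1 and 26.9 CPM at 0 h and at 38, 38 and 41.9 CPM at 4 h, with a log2 change of 0.47 (SE 0.08, adjusted p = 0.0003889). LINC00641 had a log2 change of 0.63 (adjusted p = 0.02739) and LINC00265 of 0.65 (0.0254), and neither overlapped between the 2 times, which the naming rule required. LINC00641 missed the threshold without replicates 1 (0.058) or 3 (0.101) of 0 h or replicate 2 of 4 h (0.12), and LINC00265 without replicates 1 (0.0691) or 3 (0.0874) of 0 h or replicate 1 of 4 h (0.119). LINC00265 also missed it with DESeq2 (0.0628). Of the 13 LINC genes called higher, 13 kept a positive log2 change under scaling to ribosomal protein mRNAs, but 3 passed the test there.

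**Figure D3:**
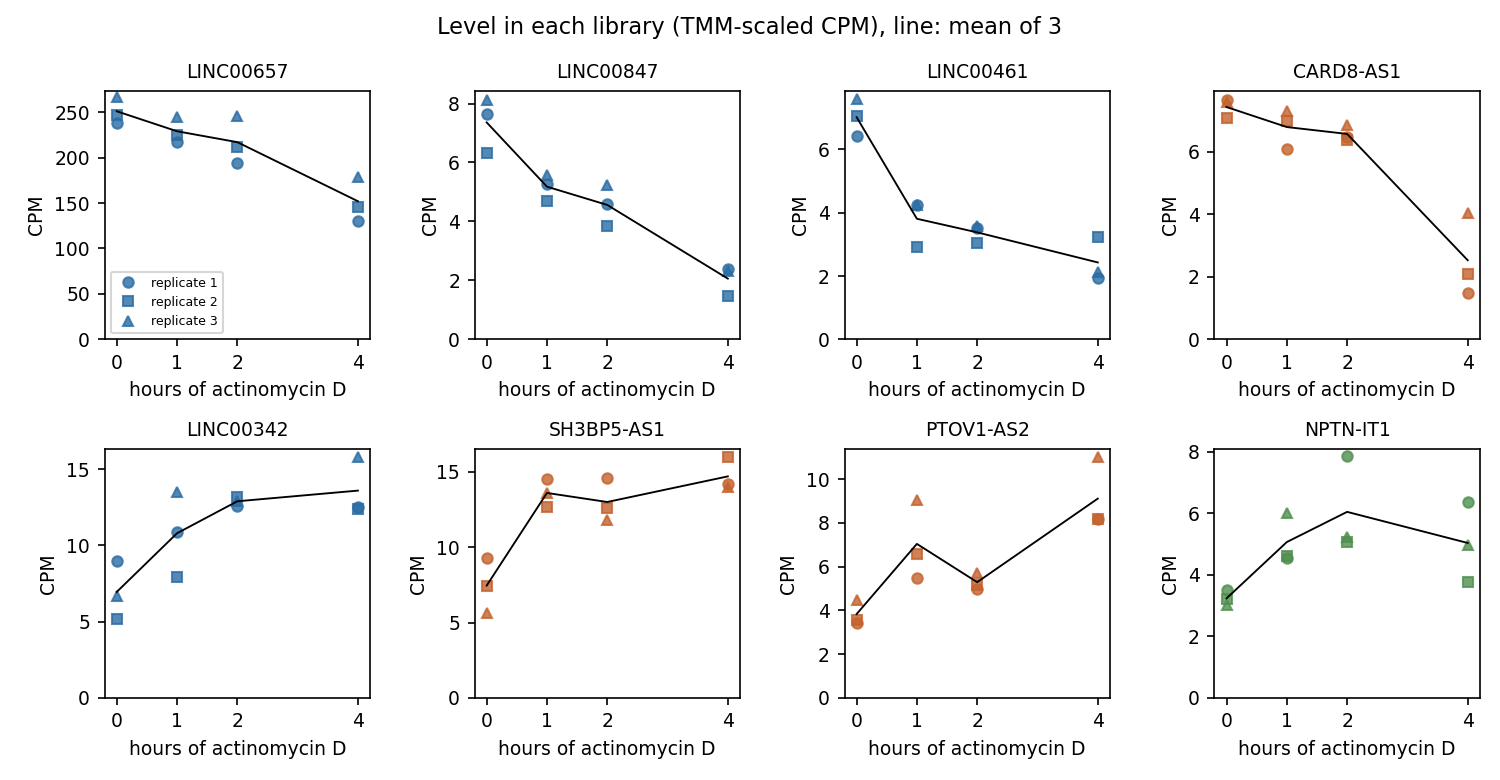
TMM-scaled CPM (vertical axis, from 0) against hours of actinomycin D for 8 members, 1 symbol per replicate number, line through the mean of 3. LINC00657, LINC00847, LINC00461 and CARD8-AS1 have their lowest mean at 4 h, and LINC00342, SH3BP5-AS1, PTOV1-AS2 and NPTN-IT1 are higher at 4 h than at 0 h in all 3 replicates.

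Of the other abundant LINC genes, LINC00674 rose and the rest had small log2 changes. LINC00674 went from 51.1, 52.9 and 51 CPM at 0 h to 64.4, 62.5 and 67 CPM at 2 h and 69.9, 70.8 and 61.5 CPM at 4 h (log2 change 0.32 at 2 h, adjusted p = 0.007487, and 0.38 at 4 h, adjusted p = 0.0007128). With scaling to ribosomal protein mRNAs its log2 change was 0.19 at 2 h (adjusted p = 0.177) and 0.01 at 4 h (0.937). LINC00152, also called CYTOR, differed more between replicates than between times, with 42.4, 43.7 and 30.8 CPM at 0 h and 44.8, 46.7 and 37.4 CPM at 4 h (log2 change 0.14, adjusted p = 0.5752). LINC00707 did the same, with 37.2, 33 and 26.8 CPM at 0 h and 39, 36 and 25.5 CPM at 4 h (log2 change 0.05, adjusted p = 0.8448). LINC00294 had a log2 change of -0.03 (adjusted p = 0.7808). LINC01116 (0.19, adjusted p = 0.08) and LINC00094 (0.21, adjusted p = 0.06126), a coding gene in GENCODE now called BRD3OS, passed only with the replicate block (0.01329 and 0.01862). Per kilobase of its longest GENCODE transcript, LINC00674 averaged 87.6 CPM, LINC00657 39.7 and LINC01116 30.6.

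Of 4 tested LINC genes on a list of those known to encode small proteins, LINC01420 alone passed the test at 4 h. LINC00116 encodes mitoregulin, a peptide of the inner mitochondrial membrane, and had a log2 change of 0.49 (adjusted p = 0.1087, and 0.01652 with the replicate block). LINC00493, which encodes SMIM26, had a log2 change of -0.04 (adjusted p = 0.8301). LINC00998, which encodes SMIM30, had one of 0.05 (adjusted p = 0.7507) that became -0.33 with scaling to ribosomal protein mRNAs.

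CARD8-AS1 fell the most among antisense RNAs of at least 2 CPM, and nearly all of its fall came after 2 h. CARD8 encodes an inflammasome sensor. The antisense RNA stood at 7.65, 7.07 and 7.58 CPM at 0 h, 6.1, 6.98 and 7.3 CPM at 1 h and 6.46, 6.37 and 6.86 CPM at 2 h. At 4 h it was at 1.47, 2.09 and 4.03 CPM, 2.91-fold below 0 h (log2 change -1.54, SE 0.25, adjusted p = 0.0002622). The change of rate (the log2 step between 2 and 4 h less the step over the first 2 h) was -1.19 (adjusted p = 0.2483, and 0.0142 with the replicate block). CARD8 itself had a log2 change of 0.06 at 4 h (adjusted p = 0.5221).

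The other antisense RNAs named for a fall were PPP1R26-AS1, TMCC1-AS1, MAPKAPK5-AS1, MAFG-AS1, NIPBL-AS1, TRHDE-AS1 and PAXIP1-AS1. PPP1R26-AS1 went from 5.76, 4.9 and 4.23 CPM at 0 h to 2.27, 1.88 and 2.33 CPM at 4 h (log2 change -1.19, SE 0.2, adjusted p = 0.0003727). MAPKAPK5-AS1, opposite a gene for a stress-linked protein kinase, went from 8.78, 7.26 and 6.52 CPM to 3.29, 3.76 and 3.92 CPM (log2 change -1.03, SE 0.18, adjusted p = 0.0005234). MAFG-AS1, opposite the gene of the small MAF transcription factor MAFG, went from 6.04, 6.03 and 6.7 CPM to 3.06, 2.93 and 3.61 CPM (log2 change -0.97, SE 0.18, adjusted p = 0.000754). In all of these the 2 times did not overlap, which the rule for naming them required. TRHDE-AS1 had a log2 change of -0.76 (adjusted p = 0.03785) and PAXIP1-AS1 of -0.72 (0.006395). TRHDE-AS1 missed the threshold without 0 h replicates 1 (0.0834), 2 (0.0739) or 3 (0.0621) or 4 h replicates 1 (0.12) or 2 (0.088), and with DESeq2 (0.0672).

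SH3BP5-AS1 was the one member past the threshold at 1 h in the main fit, and it was higher. Its level was 9.25, 7.45 and 5.64 CPM at 0 h, 14.5, 12.7 and 13.6 CPM at 1 h, 14.6, 12.6 and 11.8 CPM at 2 h and 14.2, 16 and 14 CPM at 4 h. No library with the drug reached down to the 0 h libraries, which the naming rule required, and the 3 later times lay close together. The log2 change was 0.87 at 1 h (adjusted p = 0.01952), 0.81 at 2 h (0.004098) and 0.99 at 4 h (0.0002797). The call at 1 h was lost without 0 h replicate 2 (0.112) or 3 (0.0557) and without 1 h replicate 1 (0.0815), 2 (0.0718) or 3 (0.0739), and it held with the replicate block (2.03e-05). SH3BP5, the sense gene, had a log2 change of 0.11 at 4 h (adjusted p = 0.4319).

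SLFNL1-AS1, PTOV1-AS2, SLC25A25-AS1, NPPA-AS1 and DBH-AS1 were the other antisense RNAs named for a rise at 4 h. PTOV1-AS2 went from 3.4, 3.58 and 4.49 CPM at 0 h to 5.48, 6.6 and 9.04 CPM at 1 h, 5, 5.16 and 5.7 CPM at 2 h and 8.16, 8.16 and 11 CPM at 4 h (log2 change 1.25, SE 0.21, adjusted p = 0.0003102). SLFNL1-AS1 went from 2.93, 1.7 and 1.23 CPM at 0 h to 4.76, 5.33 and 5.62 CPM at 4 h (log2 change 1.43, SE 0.3, adjusted p = 0.001787). SLC25A25-AS1, opposite a gene for a mitochondrial carrier of ATP-Mg and phosphate, went from 3.21, 3.2 and 1.85 CPM to 7.71, 5.54 and 5.3 CPM (log2 change 1.17, SE 0.26, adjusted p = 0.002826). In each the 2 times did not overlap, which the rule for naming them required. NPPA-AS1, opposite the gene for atrial natriuretic peptide, had a log2 change of 1.11 (adjusted p = 0.01157; 0.0511 if replicate 3 of 4 h was left out), and DBH-AS1, opposite the gene for dopamine beta-hydroxylase, one of 0.96 (0.003402). Of the 16 antisense RNAs called higher, 12 kept a positive log2 change with scaling to ribosomal protein mRNAs and 4 passed the test there, SH3BP5-AS1, SLC25A25-AS1, PTOV1-AS2 and SLFNL1-AS1.

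LRRC75A-AS1, the most abundant member of all, is a host gene of small nucleolar RNAs and is now named SNHG29. It stood at 420, 445 and 447 CPM at 0 h and at 521, 568 and 537 CPM at 4 h, with no overlap (log2 change 0.31, SE 0.07, adjusted p = 0.003499). Scaled to ribosomal protein mRNAs its log2 change was -0.06 (adjusted p = 0.431), and the same scaling turned PAX8-AS1 from 0.24 to -0.13 (adjusted p = 0.259) and MMP24-AS1 from 0.32 to -0.06 (adjusted p = 0.672). PAX8-AS1 went from 69.1, 67.5 and 58.8 CPM to 77.1, 82.6 and 71.8 CPM (adjusted p = 0.02893) and missed the threshold without 0 h replicates 2 (0.0621) or 3 (0.166), 1 h replicate 1 (0.0518) or 4 h replicates 1 (0.0622) or 2 (0.118). It also missed the threshold with DESeq2 (0.061). MMP24-AS1 went from 38.2, 36.6 and 37.8 CPM to 46.5, 44.7 and 49.1 CPM (adjusted p = 0.006952).

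The other abundant antisense RNAs had small log2 changes. FGD5-AS1 was at 103, 122 and 134 CPM at 0 h and at 107, 115 and 131 CPM at 4 h (log2 change -0.03, adjusted p = 0.8722). OIP5-AS1, the conserved RNA called Cyrano that directs decay of miR-7, was at 28.8, 28.5 and 39.3 CPM at 0 h and at 34.7, 34.7 and 45.7 CPM at 4 h. Replicate 3 was the highest at each time, and the log2 change of 0.25 passed with the replicate block only (adjusted p = 0.2764 without it and 0.002679 with it). SVIL-AS1 had a log2 change of 0.01 (adjusted p = 0.9116), which became -0.36 with scaling to ribosomal protein mRNAs, and THAP9-AS1 one of -0.15 (adjusted p = 0.4187). WAC-AS1 fell slightly, from 34.7, 31.8 and 33.6 CPM to 28.4, 25.5 and 31.5 CPM (log2 change -0.23, adjusted p = 0.04439), a call lost without 0 h replicates 1 (0.132) or 3 (0.0706), 2 h replicates 1 (0.0522) or 2 (0.0577) or 4 h replicates 1 (0.0918) or 2 (0.18). It also missed the threshold with DESeq2 (0.0517).

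The 6 intronic RNAs differ in kind from antisense RNAs, since an RNA named IT1 lies within an intron of its host gene, and 3 of the 6 are typed as sense intronic in GENCODE. Of the 6, 5 had a positive log2 change at 4 h and 2 passed the test, NPTN-IT1 and RPS6KA2-IT1, beside 23.3% of all genes higher. Neither passed at 4 h with library totals (0.13 and 0.104), ribosomal protein scaling (0.445 and 0.281) or DESeq2 (0.0702 and 0.155). NPTN-IT1, from the gene of the cell adhesion protein neuroplastin, was at 3.49, 3.2 and 3 CPM at 0 h, 4.55, 4.62 and 6 CPM at 1 h, 7.84, 5.06 and 5.22 CPM at 2 h and 6.35, 3.76 and 4.98 CPM at 4 h. Its lowest library with the drug lay above its highest without it (log2 change 0.9 at 2 h, adjusted p = 0.01975, and 0.63 at 4 h, adjusted p = 0.0445). AGPAT4-IT1 is rarer, with 0.755, 0.189 and 0.705 CPM at 0 h and 1.76, 2.23 and 2.03 CPM at 2 h (log2 change 1.84, adjusted p = 0.009548), and at 4 h it had a log2 change of 1.17 (adjusted p = 0.0508, and 0.01736 with the replicate block). RPS6KA2-IT1 had a log2 change of 0.86 at 4 h (adjusted p = 0.04881), CRHR1-IT1 of 0.69 (0.08476) and ERI3-IT1 of 0.78 (0.1131). SPRY4-IT1 had one of -0.8 (adjusted p = 0.2316).

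The host genes were measured beside them, without a test of the difference. NPTN had a log2 change of 0.29 at 4 h (adjusted p = 0.003686), RPS6KA2 of 0.27 (0.001056) and AGPAT4 of 0.28 (0.1886). SPRY4, a feedback inhibitor of receptor tyrosine kinase signalling, fell by 1.24 on the log2 scale (adjusted p = 0.0006825), and its intronic RNA also had a negative value. Reads of an intronic RNA and of unspliced RNA of its host cannot be told apart in these counts. AGPAT4-IT1, RPS6KA2-IT1, CRHR1-IT1, ERI3-IT1 and SPRY4-IT1 are named because they complete the class of 6, a choice made after their values were seen. The 4 h call of NPTN-IT1 was lost in 7 of 12 fits that left out 1 library, without 0 h replicates 1 (0.064), 2 (0.0999) or 3 (0.118), 1 h replicates 1 (0.055) or 2 (0.0559), or 4 h replicates 1 (0.188) or 3 (0.082). The call of RPS6KA2-IT1 was lost in 10 of 12, with adjusted p from 0.0527 to 0.152, and held only without 1 of 2 libraries, 0 h replicate 2 or 2 h replicate 3.

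The changes of antisense RNAs and of their sense partners were nearly uncorrelated. Of the 171 tested antisense RNAs, 142 had a tested partner, found by removing the suffix from the symbol. Over the 142 pairs the Spearman correlation of the log2 changes at 4 h was -0.07, given as a description because pairs share libraries and scaling. In 7 pairs both RNAs were lower and in 2 both were higher, in 5 the antisense RNA was lower and the partner higher, and in 4 the reverse. Of the 142 antisense RNAs, 22 were lower and 11 higher. Whether the pair counts differ from those of unrelated calls was not tested, so they are not a result about pairing. In 58 pairs the partner alone passed, in 15 the antisense RNA alone, and in 51 neither. Partners are more abundant (median 36.1 CPM against 2.33) and were called more often than the antisense RNAs, 48 lower and 28 higher of 142. That is 53.5%, near the 47.9% of all genes and the 56.4% of genes at 20 CPM or more. In the 58 head-to-head pairs, whose start sites lie within 1000 bases on opposite strands in RefSeq, the correlation was -0.04.

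**Figure D4:**
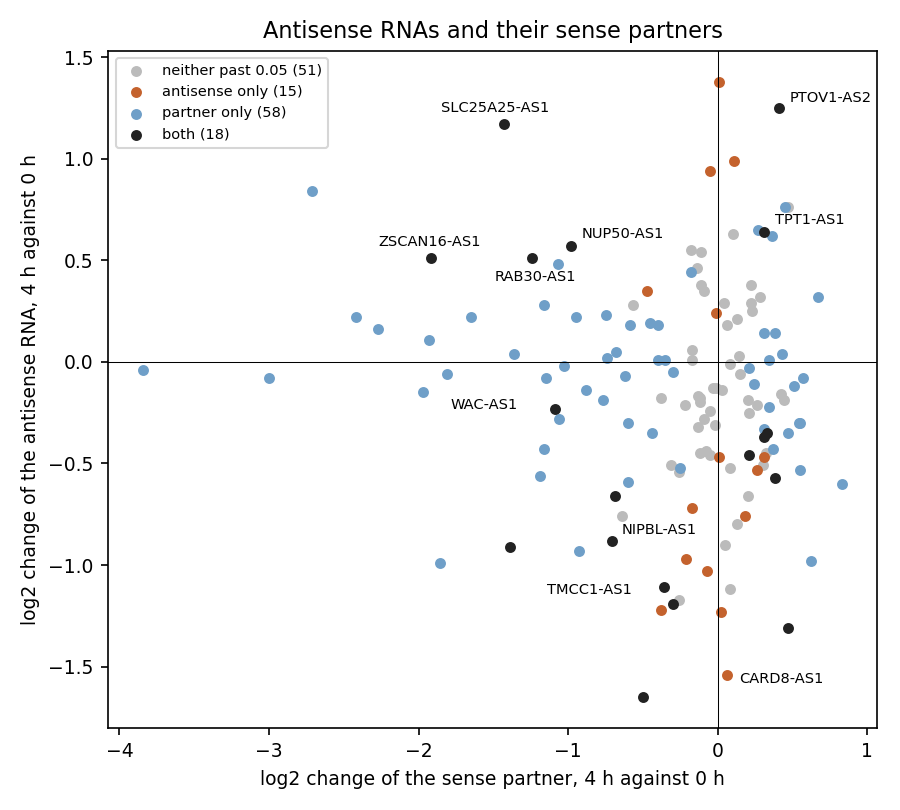
Log2 change at 4 h of 142 antisense RNAs (vertical axis) against that of their sense partners (horizontal axis), coloured by which of the pair passed an adjusted p of 0.05. Points lie in all 4 quadrants, with 18 pairs in which both passed, and NUP50-AS1 and RAB30-AS1 lie above 0 while their partners lie below it.

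NUP50-AS1 and its partner share most of a promoter window, as printed above, and moved apart. NUP50 encodes a nucleoporin. The antisense RNA was at 4.53, 3.39 and 4.14 CPM at 0 h and 5.78, 5.86 and 6.26 CPM at 4 h (log2 change 0.57, adjusted p = 0.01703), while NUP50 went from 70.5, 65.5 and 58.5 CPM to 28.6, 36.5 and 33.6 CPM (log2 change -0.98, adjusted p = 1.373e-05). RAB30-AS1 rose from 3.59, 3.49 and 4.41 CPM to 6.46, 4.6 and 5.41 CPM (log2 change 0.51, adjusted p = 0.04323), while RAB30, a small GTPase of the Golgi, went from 39.8, 45.3 and 44.1 CPM to 14.8, 19.5 and 20.1 CPM (log2 change -1.24, adjusted p = 2.002e-06). In both pairs all 3 replicates showed both directions. The call of NUP50-AS1 was lost without 0 h replicate 2 (0.0783) or 4 h replicate 3 (0.0505). That of RAB30-AS1 was lost without 0 h replicates 1 or 2, 1 h replicates 1 or 2 or 4 h replicates 1 or 3, with adjusted p from 0.0504 to 0.164. Neither antisense rise passed with library totals (adjusted p 0.0737 for NUP50-AS1 and 0.16 for RAB30-AS1), ribosomal protein scaling (0.381 and 0.599) or DESeq2 (0.0538 and 0.107). Under ribosomal protein scaling the log2 changes were 0.19 and 0.14.

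SLC25A25-AS1 and ZSCAN16-AS1 complete the 4 pairs with a higher antisense RNA and a lower partner. NUP50-AS1, RAB30-AS1, ZSCAN16-AS1 and TPT1-AS1 were chosen after their values were seen. SLC25A25 went from 27.2, 28.7 and 23.6 CPM to 8.84, 9.1 and 11.6 CPM (log2 change -1.43, adjusted p = 1.578e-06) against 1.17 for its antisense RNA. ZSCAN16, a zinc finger gene, had a log2 change of -1.92 (adjusted p = 9.058e-05) against 0.51 for ZSCAN16-AS1 (0.03333), which missed the threshold without 0 h replicates 2 (0.149) or 3 (0.0728) or 4 h replicates 2 (0.0729) or 3 (0.104), and with library totals (0.137), ribosomal protein scaling (0.601) or DESeq2 (0.0991).

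In 5 pairs the antisense RNA was lower and the partner higher, all named after their values were seen. CAPN10-AS1 had a log2 change of -1.31 (adjusted p = 0.01843) against 0.47 for CAPN10 (0.003823), a calpain protease gene whose promoter window shares 83 bases with that of the antisense RNA. ARRDC1-AS1 had one of -0.57 (0.01385) against 0.38 for ARRDC1 (0.03113). CTBP1-AS2 had one of -0.37 (0.009989) against 0.31 for CTBP1 (0.007396), the gene of a transcriptional corepressor. NNT-AS1 had one of -0.46 (0.03582) against 0.21 for NNT (0.02025), which encodes a mitochondrial transhydrogenase, and PSMA3-AS1 one of -0.35 (0.04433) against 0.33 for the proteasome subunit gene PSMA3 (0.0002314). CTBP1-AS2 kept its call in all 12 fits that left out 1 library. ARRDC1-AS1 lost it without replicate 2 of 4 h (0.0616), CAPN10-AS1 without replicates 1 (0.0527) or 3 (0.0529) of 0 h or 3 of 4 h (0.0584), and NNT-AS1 without replicates 1 (0.0762) or 3 (0.0982) of 0 h or 1 (0.123) or 2 (0.128) of 4 h. PSMA3-AS1 kept it in 3 of 12, those without replicate 2 or 3 of 0 h or replicate 3 of 4 h, and otherwise had an adjusted p from 0.0509 to 0.193. With DESeq2, NNT-AS1 (adjusted p = 0.0525) and PSMA3-AS1 (0.0601) missed the threshold, and CAPN10-AS1 (0.0446), ARRDC1-AS1 (0.021) and CTBP1-AS2 (0.0222) passed. The rises of the partners were not read with other scalings. Scaling to ribosomal protein mRNAs moved the median log2 change of all genes from 0.05 to -0.32.

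Pairs that fell together included NIPBL-AS1 and TMCC1-AS1, both with shared promoter windows. NIPBL encodes the loader of cohesin onto chromatin. NIPBL-AS1 fell early, from 6.8, 6.79 and 7.14 CPM at 0 h to 3.33, 4.35 and 5.12 CPM at 2 h and 3.4, 3.45 and 4.35 CPM at 4 h (log2 change -0.69 at 2 h, adjusted p = 0.03446, and -0.88 at 4 h, 0.00344). NIPBL was still at 81.1, 75.4 and 94.8 CPM at 2 h against 90.2, 90.4 and 90.2 CPM at 0 h, and had a log2 change of -0.71 at 4 h (adjusted p = 0.0001836). The call of NIPBL-AS1 at 2 h was lost without 0 h replicates 1 (0.0798), 2 (0.0822) or 3 (0.0768) or 2 h replicates 1 (0.124) or 2 (0.0926). TMCC1-AS1 went from 5, 2.73 and 3.7 CPM to 1.47, 1.36 and 2.44 CPM (log2 change -1.11, adjusted p = 0.005718), and TMCC1 had a log2 change of -0.36 (0.01861). TPT1-AS1 and TPT1, the gene of translationally controlled tumour protein, both rose, with log2 changes of 0.64 (adjusted p = 0.005469) and 0.31 (0.002394). The rise of TPT1-AS1 was 0.48 with library totals (adjusted p = 0.0259) and 0.26 with ribosomal protein scaling (0.228). TPT1 was not read with other scalings.

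Among the 8 pairs with the most abundant antisense RNA, WAC and WAC-AS1 both fell, WAC by 1.09 on the log2 scale (adjusted p = 5.495e-08) and WAC-AS1 by 0.23. PAX8 had a log2 change of -0.01 and OIP5 of 0.23, with adjusted p of 0.9455 and 0.5679. SVIL fell by 0.35 (adjusted p = 0.04065) and THAP9 by 1.97 (0.006909), against 0.01 and -0.15 for their antisense RNAs. LOXL1 rose by 0.57 (adjusted p = 0.0001354) against -0.08 for LOXL1-AS1 (0.5463), and VPS9D1 by 0.67 (0.0002486) against 0.32 for VPS9D1-AS1 (0.1171, and 0.01064 with the replicate block). HNRNPU-AS1, which RefSeq lists under HNRNPU itself, had a log2 change of -0.31 (adjusted p = 0.1696) and HNRNPU of -0.02 (0.8663). Libraries were made with a stranded kit, but the strand setting of the counting was not given in the sources used here, so reads of overlapping opposite genes cannot be told apart with certainty.

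At 1 h few members passed the main test, which does not pair the libraries. No LINC gene was called, and 1 antisense RNA was higher, beside 1.16% of all genes lower and 0.172% higher. At an unadjusted p under 0.05, 8 LINC genes were lower and 7 higher, 8 antisense RNAs lower and 11 higher, and 2 intronic RNAs higher. DESeq2 called 1 LINC gene lower and 3 antisense RNAs higher. By size alone, 9 of 271 members (3.32%) were at least 2-fold higher, beside 0.235% of all genes; 118 of the 271 average under 2 CPM. With the replicate block 5 members were lower (1.85%) and 15 higher (5.54%), beside 6.28% and 2.52% of all genes. Those higher with the block included SLFNL1-AS1 (log2 change 1.3, adjusted p = 0.0006652), PTOV1-AS2 (0.88, 0.0002739), NPPA-AS1 (1.13, 0.007944), LINC01252 (1.02, 0.02771), LINC00342 (0.63, 0.007065) and LINC00641 (0.39, 0.02586). These listed members had already been named for a rise at 4 h, so their direction there says nothing about the rest of the 15. Both comparisons also share the 0 h libraries.

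At 2 h 5 members were lower and 7 higher, beside 11.7% and 3.39% of all genes. The lower ones were LINC00461, LINC00847, LINC00638, NIPBL-AS1 and PPP1R26-AS1, and the higher ones LINC01252, LINC00342, LINC00674, SLC25A25-AS1, SH3BP5-AS1, NPTN-IT1 and AGPAT4-IT1. LINC00638 and AGPAT4-IT1 average under 2 CPM and are named after their values were seen. The calls of LINC00461, LINC00674, SH3BP5-AS1 and AGPAT4-IT1 held in all 12 fits that left out 1 library. Beside those of LINC00847, LINC00342 and NIPBL-AS1, given above, the others were lost without the following libraries. PPP1R26-AS1 missed the threshold without replicates 1 (0.144) or 2 (0.0915) of 0 h or any replicate of 2 h (0.111, 0.0733 and 0.0728), and with DESeq2 (0.0935). LINC00638 missed it without replicate 2 of 0 h (0.0562) or 3 of 2 h (0.062). SLC25A25-AS1 did so without replicates 2 (0.0534) or 3 (0.109) of 0 h or 1 (0.0745) or 2 (0.142) of 2 h, and NPTN-IT1 without replicates 2 (0.0638) or 3 (0.0618) of 0 h or 1 of 2 h (0.0864). LINC01252 did so without any replicate of 0 h (0.116, 0.0617 and 0.0776) or replicates 1 (0.0675) or 2 (0.141) of 2 h. With the replicate block 20 were lower and 18 higher, beside 19.5% and 15.9% of all genes. The counts rested on few libraries: leaving out replicate 1 of 0 h left 2 lower members, leaving out replicate 2 of 0 h or replicate 1 or 2 of 2 h left 3, and for higher members 3 were left without replicate 2 of 0 h and 4 without replicate 1 of 2 h.

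In the main fit, which does not pair the libraries, the change of rate was past the threshold in no member, beside 0.227% of all genes lower and 0.384% higher. At an unadjusted p under 0.05, 5 members were lower and 5 higher, and DESeq2 called 0. With the replicate block 6 were lower and 2 higher, beside 5.46% and 7.39% of all genes. The lower ones were CARD8-AS1 and LINC00657 (-0.31, adjusted p = 0.0119 with the block), with larger falls after 2 h than before, and LINC00342 (-0.82, 0.0272), LINC00641 (-0.68, 0.0156), NPTN-IT1 (-1.16, 0.0154) and AGPAT4-IT1 (-2.51, 0.00575). The last 4 had positive log2 changes at 2 h, not past the threshold there for LINC00641 in the main fit, and changed less or turned down after it. The log2 change against 0 h went from 0.89 at 2 h to 0.97 at 4 h for LINC00342, from 0.66 to 0.63 for LINC00641, from 0.9 to 0.63 for NPTN-IT1 and from 1.84 to 1.17 for AGPAT4-IT1. These members, and the higher ones, were chosen after their values were seen. The higher ones were PROSER2-AS1 (0.63, adjusted p = 0.047) and AGAP2-AS1 (0.72, 0.0222). As a slope per hour over all 12 libraries, 40 members were lower and 26 higher, beside 25.5% and 25.3% of all genes. The steepest slope of a LINC gene of at least 2 CPM was that of LINC00847, which lost 0.437 log2 units per hour (slope -0.437, SE 0.051, adjusted p = 4.218e-06).

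Members with more exons had higher log2 changes at 4 h. Exon numbers came from the longest GENCODE v29 transcript and were known for 263 tested members. Matching by symbol can return a coding gene: 14 of these members were typed protein coding. HNRNPU-AS1 was matched to HNRNPU itself, with 16 exons. The Spearman correlation of exon number with the log2 change at 4 h was 0.23 over these members, 0.25 over 90 LINC genes and 0.26 over 168 antisense RNAs, as a description across genes. Of 42 members with 1 exon, 12 were lower and 4 higher (median log2 change -0.28). Of 110 with 2 or 3 exons, 18 were lower and 11 higher (-0.14), and of 111 with 4 or more, 6 were lower and 14 higher (0.09). Among all tested genes, 226 were lower and 76 higher of 511 with 1 exon, 644 and 344 of 1860 with 2 or 3, and 2249 and 2526 of 10205 with 4 or more. Their medians had the same order (-0.4, -0.11 and 0.08) and the correlation was 0.15, so the order is not particular to the members. Transcript length had a correlation of -0.1 with the change among members and -0.19 among all tested genes.

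**Figure D5:**
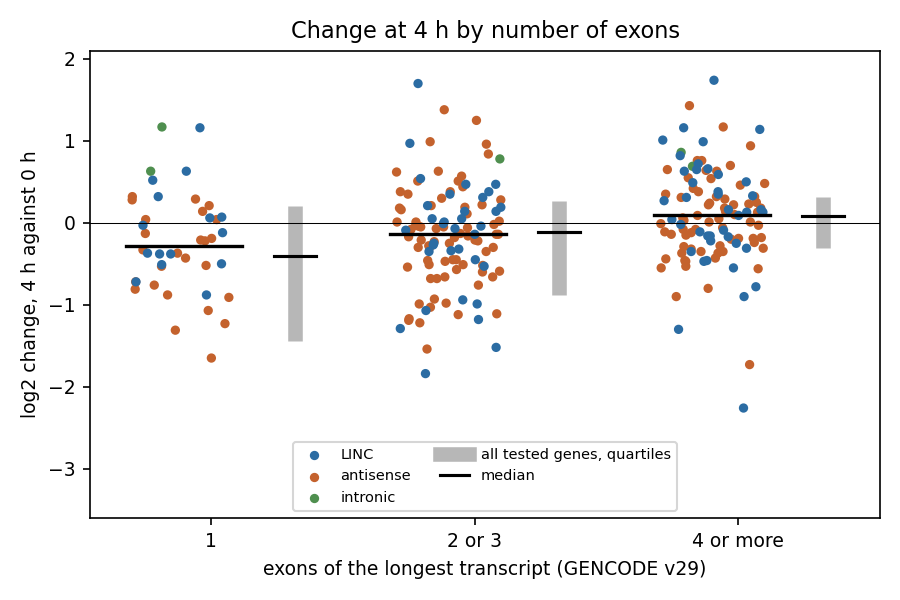
Log2 change at 4 h (vertical axis) of 263 members by number of exons of the longest GENCODE v29 transcript, coloured by class, with member medians as lines, and the quartiles and median of all tested genes as grey bars. Member medians run from -0.28 with 1 exon to 0.09 with 4 or more, beside -0.4 to 0.08 for all tested genes.

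Names and annotation also differ from the class names. In GENCODE v29, 61 of the 95 LINC genes are lincRNAs, 10 are protein coding and 8 are antisense, and 117 of the 177 antisense genes are typed antisense and 22 lincRNA. RefSeq now gives 25 of the antisense genes a name ending in DT (divergent transcript), NUP50-AS1, RAB30-AS1, NIPBL-AS1 and TMCC1-AS1 among them. RefSeq promoter windows were found for 220 members. GGAAGGAA, a pair of the GGAA repeats that EWS::FLI1 can bind, occurred on either strand in 13 of 220 (5.91%), beside 3.58% of 27305 promoters, and of these members TRHDE-AS1, CAPN10-AS1 and LINC00189 were lower and LINC00176 was higher at 4 h (named after their values were seen), which is 3 and 1 of 12 tested, beside 24.6% and 23.3% of all genes. The TATA box word TATAAA occurred in 5.91% of member windows beside 12% of all promoters, and the median GC content was 63.3% beside 58.3%. These matches are counts of letters and not of bound sites.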

How the data were processed

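Polyadenylated RNA of 12 libraries was counted per gene. The authors deposited a table of raw counts for each gene symbol. Per the submitters' processing notes, FastQC and STAR were used with the human build hg19; no versions are given. The counting program, annotation and strand setting are not given in the sources used here.

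The counts were tested with edgeR 4.0.16 in R 4.3.3 (TMM scaling, filterByExpr on the time groups, 12775 genes, time as a factor over all 12 libraries, quasi-likelihood test, Benjamini-Hochberg over all genes tested, threshold 0.05). A standard error (SE) is that of the log2 change. The code was tested on simulated data. DESeq2 1.42.0 served as an alternative, with other scalings, filters and left-out libraries. Totals of 9381855 to 10929000 counts per library leave a median of 23 reads per member, so rare members have wide errors. No 2 libraries were identical. The labels call the replicates biological, without saying how they were kept apart, so p-values measure the spread between these samples.

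Replicate numbers are shared by the 4 times, per the labels, and they paired the libraries. Correlations of the libraries' deviations from their time's mean were 0.263 to 0.649 within a number and -0.501 to 0.16 between numbers, and 12 of 12 libraries were closest to their own number. The main test and the fits that left out 1 library did not model this pairing. A call absent or lost there may therefore be present with the replicate block, and no left-out fit used the block. Named members were the 8 most abundant of each class, the largest falls (up to 8) and rises (up to 6) at 4 h, and up to 4 falls and 3 rises at 1 and 2 h, among members past the threshold whose mean reached 2 CPM and whose times did not overlap, the 8 pairs with the most abundant antisense RNA, and the list of small-protein genes. Members, lists and tests were chosen with earlier results of these data known, and the intronic class, exon groups, microRNA hosts and motifs were added after seeing values. Of 278 members, 270 matched a GENCODE v29 transcript and 220 a RefSeq promoter (GRCh38.p14). Those builds differ from the files' build, so only the printed windows carry coordinates.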

Additional observations from a re-analysis of the deposited data

How the results depend on the processing

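The calls of rises depend on the scaling more than their directions do. With ribosomal protein scaling, 13 of 13 LINC, 12 of 16 antisense and 2 of 2 intronic rises kept a positive log2 change. Of these, 3, 4 and 0 passed the test there. The median log2 change of all genes at 4 h was 0.05 with TMM, -0.1 with library totals and -0.32 with scaling to 79 ribosomal protein mRNAs, and changes are best read relative to it. The shares of all genes called with library totals or ribosomal protein scaling are not given here. The member counts with these scalings are therefore not a result about the members. With library totals, LINC genes higher at 4 h numbered 7, antisense RNAs 37 lower and 8 higher, members lower at 2 h 10 and members with a positive slope 9, the class medians were -0.14 (LINC) and -0.27 (antisense), and the summed level at 4 h over that at 0 h was 0.841 for LINC and 0.962 for antisense RNAs, against 0.932 and 1.07 with TMM. With ribosomal protein scaling, LINC genes numbered 25 lower and 3 higher, antisense RNAs 58 and 4, members at 2 h 16 and 3 and slopes 90 and 1, and the medians were -0.36 and -0.49. Log2 changes turned negative for the called rises LRRC75A-AS1 (-0.06), PAX8-AS1 (-0.13), MMP24-AS1 (-0.06) and TP73-AS1 (-0.02, named after its value was seen). They also did so for SVIL-AS1 (-0.36) and LINC00998 (-0.33), which were not called with TMM. With genes of at least 2 CPM only, which tests fewer members, LINC genes numbered 8 lower and 7 higher at 4 h and 1 member was lower at 1 h, and the medians were 0.05 (LINC) and -0.06 (antisense). DESeq2 gave 8 LINC genes and 10 antisense RNAs higher at 4 h, and 1 member lower and 3 higher at 1 h. With no filter 2 members were higher at 1 h, and with the 2 times alone 0. With the replicate block, members lower and higher numbered 5 and 15 at 1 h, 20 and 18 at 2 h and 6 and 2 for the change of rate, and lower antisense RNAs at 4 h 38. All 68 members called at 4 h were also called with the block. Leaving out 1 library gave 0 to 1 member lower and 0 to 2 higher at 1 h, 2 to 6 lower and 3 to 8 higher at 2 h, 8 to 14 lower LINC genes, 14 to 26 lower antisense RNAs, and 0 to 1 lower for the change of rate. All 12 such fits called 6 lower and 6 higher LINC genes and 11 lower and 9 higher antisense RNAs. Where not stated, the cause was not tested.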

Other observations

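Long noncoding RNAs with other names were read from a fixed list for comparison. Of 21 tested, 2 were lower (9.52%) and 6 higher (28.6%) at 4 h, beside 24.6% and 23.3% of all genes. MALAT1, an abundant RNA of nuclear speckles, went from 161 ± 13.6 to 614 ± 111 CPM (SD, n = 3; log2 change 1.93, adjusted p = 9.194e-07). NEAT1, the scaffold of paraspeckles, went from 176 ± 23.2 to 392 ± 44 CPM (1.16, adjusted p = 5.439e-05) and was level at 2 h (-0.07). MEG3, an imprinted RNA, went from 106 ± 24.6 to 235 ± 45 CPM (1.15, adjusted p = 0.0003481). MIR22HG, the host of miR-22, went from 64.9 ± 16.1 to 16.1 ± 3.48 CPM (-2.01, adjusted p = 5.411e-05) and MIR100HG, the host of miR-100, from 14.4 ± 2.37 to 6.59 ± 0.286 CPM (-1.13, adjusted p = 0.0002753).

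Of 18 tested host genes of small nucleolar RNAs, 8 were lower (44.4%) and 3 higher (16.7%) at 4 h, beside the same shares of all genes, and the lists were not tested against each other. SNHG12 had a log2 change of -2.1 (adjusted p = 7.904e-06), SNHG7 of -1.4 (6.593e-07) and SNHG3 of -1.08 (5.48e-05), while ZFAS1 rose by 0.33 (0.007781), beside 0.31 for LRRC75A-AS1. Of 27 tested genes of nuclear RNA surveillance and the exosome, 11 were lower (40.7%) and 3 higher (11.1%), beside those shares too. The higher ones were PABPN1 (log2 change 0.65, adjusted p = 0.00718), EXOSC5 (0.52, 0.03108) and XRN2 (0.19, 0.005183). Among the lower ones, NRDE2 had a log2 change of -2.01 (adjusted p = 1.518e-06) and ZCCHC7, of the TRAMP complex, one of -1.19 (9.194e-07). RBM7 and ZCCHC8, subunits of the NEXT complex that leads unstable nuclear RNAs to the exosome, had log2 changes of -1.86 (adjusted p = 2.984e-07) and -1.15 (1.877e-06), and ZFC3H1, of the PAXT connection, had -1.3 (4.101e-06). These are mRNA levels, and the proteins were not measured. MIR100HG, MEG3, ZFAS1, ZCCHC8, ZFC3H1, PABPN1, EXOSC5 and XRN2 were named after their values were seen.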
